A study of Mus musculus with 4 samples.

Results

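The Ly49 receptors are encoded by the Klra genes, and the members described here are the 10 rows named Klra1 to Klra10 among the 27998 genes of the deposited single-cell count tables. They were read in barcodes that held at least 1 unique molecular identifier (UMI, a tag that marks 1 captured RNA molecule) of Cd3e, no fewer than 200 genes, no more than 20000 UMIs in all and up to 10% of UMIs from mitochondrial genes, which kept 21342 of 32525 barcodes. The cells were unconventional αβ T cells (UTCαβ), sorted from 3-methylcholanthrene-induced sarcomas of male C57BL/6J mice as CD45+ CD11b- TCRβ+ TCRγδ- cells without CD4 or CD8. One group carried the intact receptor for granulocyte colony-stimulating factor (Csf3r+/+) and the other lacked it in every cell (Csf3r-/-), a germline loss that leaves mice short of neutrophils, and both had received the carcinogen. Each genotype had 2 libraries, called library 1 and library 2 after the number that follows each barcode. The ages of the mice are not given in the sources used here.

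Ly49 receptors are lectin-like proteins that sit on the cell surface as dimers and recognize major histocompatibility complex (MHC) class I molecules. Most are inhibitory: a tyrosine motif near the start of the protein recruits the phosphatase SHP-1, the product of Ptpn6. The activating receptors lack the motif and signal through the adaptor DAP12, the product of Tyrobp. They are best known from natural killer (NK) cells, in which each cell switches on its own few members of the cluster, and they also occur on some T cells.

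The Csf3r+/+ libraries kept 2843 and 6458 cells, the Csf3r-/- libraries 5215 and 6826, with 9827411 to 23753033 UMIs per library and medians of 1983 to 3055 UMIs per cell. Barcodes without a Cd3e UMI numbered 774 and 5053 in Csf3r+/+ and 1960 and 3366 in Csf3r-/-. The methods describe the same demand for Cd3e with a much smaller loss of cells, so the cells kept here are a narrower set than the study's, and the reason is not known. Because depth differed, shares of cells were taken after each cell was thinned at random to 1500 UMIs, which left out 63 to 975 cells per library. Any 2 libraries shared between 20 and 56 kept barcodes, at most 1.02% of the smaller one. Cd3d or Cd3g, the other measured CD3 chains, were found in at least 96.3% of cells in every library, against 29.2 to 72.7% of B cell barcodes without Cd3e, so that their detection alone does not mark a T cell. Cd4, which the sort removed, was found in at most 0.759% of cells with or without a member in every library. Cd8b1, a gene of CD8, which the sort also removed, was more frequent in cells without a member. It was found in 2.63% and 1.1% of these in Csf3r+/+ and in 4.37% and 3.89% in Csf3r-/-. Among cells with a member the shares were 0.583% and 0.634% in Csf3r+/+ and 1.05% and 1.69% in Csf3r-/-. Trac, Trbc1 and Trbc2 have no row in the tables.

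The members lie side by side on the minus strand of mouse chromosome 6 (GRCm38, GENCODE M21). The first is Klra5 at chr6:129898996-129917650, followed by Klra6, Klra4, Klra8, Klra9, Klra7, Klra10, Klra3 and Klra1, which ends at chr6:130386874. Klra2 stands apart at chr6:131219223-131247362. The first 60 coding bases of each are shown, 5′ to 3′ and read from the GENCODE transcripts, because they separate the inhibitory from the activating receptors. Capitals mark the codons of an inhibitory motif (isoleucine, valine or leucine, any residue, tyrosine, any 2 residues, then isoleucine, valine or leucine) where a search of the first 20 residues found one.
Klra1: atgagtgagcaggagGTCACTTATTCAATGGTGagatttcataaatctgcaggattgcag
Klra2: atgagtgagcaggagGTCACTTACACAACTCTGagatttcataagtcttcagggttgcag
Klra3: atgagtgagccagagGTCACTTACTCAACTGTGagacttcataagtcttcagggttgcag
Klra4: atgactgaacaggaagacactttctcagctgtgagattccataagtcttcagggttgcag
Klra5: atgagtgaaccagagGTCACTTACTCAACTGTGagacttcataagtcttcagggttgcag
Klra6: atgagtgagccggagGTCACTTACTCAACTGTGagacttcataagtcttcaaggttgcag
Klra7: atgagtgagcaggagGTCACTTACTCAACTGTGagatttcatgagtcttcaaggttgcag
Klra8: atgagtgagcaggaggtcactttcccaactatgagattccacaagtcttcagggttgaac
Klra9: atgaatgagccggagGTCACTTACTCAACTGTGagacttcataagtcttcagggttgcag
Klra10: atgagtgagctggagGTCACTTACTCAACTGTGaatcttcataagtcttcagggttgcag
The motif began at residue 6 in all 8 genes that held it. Klra4 and Klra8, which encode the activating receptors Ly49D and Ly49H, held none.

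The copies are close enough to share reads. Over the coding sequence Klra9 and Klra10 were 96.9% identical, Klra3 and Klra10 96.2% and Klra3 and Klra9 95.9%, whereas Klra2 matched the others at 72.6 to 74.8%. Since the kit reads the 3′ end, the last 300 bases of every transcript were cut into all words of 31 bases and looked for in the transcripts of other genes. None of the words of Klra1 or Klra2 was found elsewhere, against 5.19% for Klra6, 9.26% for Klra4, 15.3% for Klra5, 40.4% for Klra7, 52.2% for Klra8, 61.1% for Klra3, 70.2% for Klra9 and 75.2% for Klra10. Klra7 shared its words with a pseudogene, Klra13-ps, that has no row in the tables, and Klra9 shared most with Klra3 (54.5%). The length of the single-cell reads is not given in the sources used here, and the sequencing kits the study lists are labelled for fewer than 91 cycles. Words of 91 bases are longer than a read from such kits and so understate the sharing. Of these words, 29% were shared for Klra10, 14.6% for Klra9, 9.57% for Klra7 and 3.8% for Klra3, and none for the other 6 members. Counts of Klra3, Klra9 and Klra10 are therefore uncertain as a set, and those of Klra7 and Klra8 to a lesser degree.

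Klra7 was the member with the most UMIs in all 4 libraries, followed by Klra1. Levels are given as CPM, a gene's UMIs scaled to the total UMIs of the library's kept cells, with Csf3r+/+ library 1 before library 2 and likewise for Csf3r-/-. Klra7 (Ly49G) held 433 and 512 CPM in Csf3r+/+ and 154 and 128 in Csf3r-/-. Klra1 (Ly49A) held 348 and 290.2 CPM in Csf3r+/+ and 101 and 99 in Csf3r-/-. Klra9 (Ly49I) held 137 and 237 in Csf3r+/+ and 53.9 and 80.3 in Csf3r-/-. For each of these 3 inhibitory receptors both Csf3r-/- libraries lay below both Csf3r+/+ libraries, as they did for 17.4% of 11491 genes tested.

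Klra6 (Ly49F) held 85.3 and 111 CPM in Csf3r+/+ and 28.5 and 28.3 in Csf3r-/-. Klra3 (Ly49C) held 45.8 and 47.8 in Csf3r+/+ and 13.6 and 17.9 in Csf3r-/-. Klra5 (Ly49E) held 24.8 and 28.5 in Csf3r+/+ and 6.92 and 7.27 in Csf3r-/-. These receptors too had no overlap between genotypes, and the ratio of the Csf3r+/+ mean to the Csf3r-/- mean ran from 2.79 for Klra9 to 3.76 for Klra5 among the 6 members above 5 CPM in every library. Since 1 UMI stands for the 3′ end of 1 molecule, these levels need no division by length, but the order of members that share reads with another copy is uncertain.

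The activating receptors were rare. Klra4 (Ly49D) held 95 and 111 UMIs in Csf3r+/+ (9.67 and 4.67 CPM) and 6 and 10 in Csf3r-/- (0.424 and 0.616 CPM). Klra8 (Ly49H) held 63 and 156 UMIs in Csf3r+/+ (6.41 and 6.57 CPM) and 3 and 46 in Csf3r-/- (0.212 and 2.83 CPM), and the exact 95% Poisson interval of the count of 3 ran from 0.619 to 8.77. The Csf3r-/- libraries lay below the Csf3r+/+ libraries for both genes. At 1500 UMIs Klra4 was seen in 0.755% and 0.775% of Csf3r+/+ cells and in 0.0856% and 0.0855% of Csf3r-/- cells.

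Klra10 (Ly49J) held 5 and 61 UMIs in Csf3r+/+ and 4 and 5 in Csf3r-/-, so it was near the limit of detection in 3 of the 4 libraries. Klra2 (Ly49B), a member known from myeloid cells, was the only one whose Csf3r-/- libraries lay above. It had 0 and 18 UMIs in Csf3r+/+ (0 and 0.758 CPM) and 11 and 22 in Csf3r-/- (0.776 and 1.35 CPM). For the count of 0 the exact 95% Poisson interval reached 3.69 UMIs. The exact 95% Poisson intervals were 10.7 to 28.4 for the count of 18 and 5.49 to 19.7 for that of 11. The values of 0.758 and 0.776 CPM are thus not apart beyond counting error. Only 8 cells at 1500 UMIs held Klra2, and 62.5% of them also held C1qa, a macrophage gene. Klra17, the only other Klra row, held 0 to 2 UMIs per library.

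**Figure D1:**
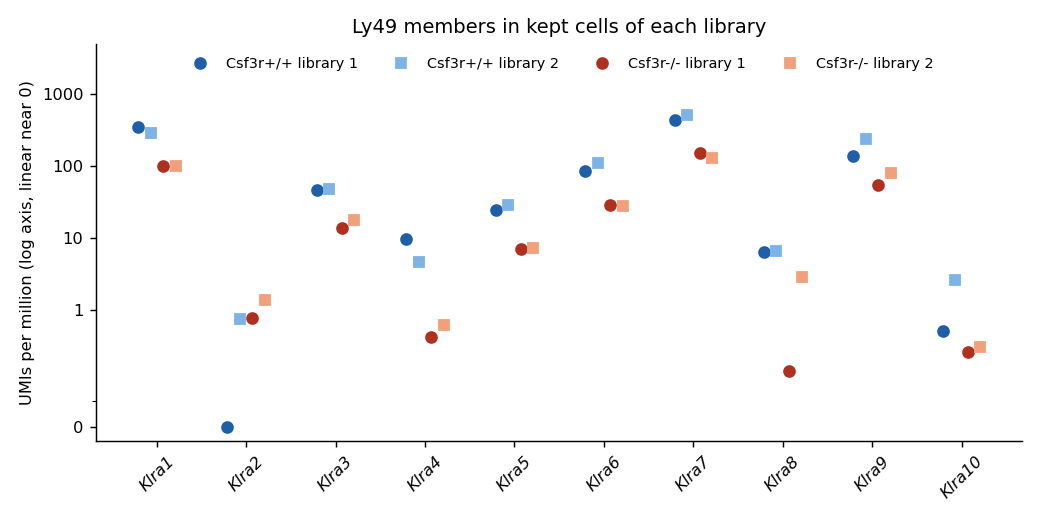
CPM of the 10 Ly49 members (y axis, logarithmic above 0.3 and linear below) in the kept cells of each of the 4 libraries (points; circles library 1, squares library 2, blue Csf3r+/+, red Csf3r-/-). Both red points lie below both blue points for every member except Klra2, from 154 against 433 for Klra7 down to 0.308 against 0.509 for Klra10. The last 2 values rest on 5 UMIs each. Of 11491 genes tested, 17.4% had both Csf3r-/- libraries below both Csf3r+/+ libraries and 30.4% had both above.

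The comparison of genotypes asked whether loss of Csf3r went with a change in Ly49 transcripts. UMIs were summed per library and tested by the quasi-likelihood test of edgeR, with p adjusted after Benjamini and Hochberg over 11491 genes, of which 9 were members (Klra10 was filtered out). In bulk sums like these, fewer positive cells and less RNA per positive cell cannot be told apart. Log2 fold changes of Csf3r-/- over Csf3r+/+ were -1.86 ± 0.23 (SE) for Klra7, -1.77 ± 0.18 for Klra1, -1.90 ± 0.24 for Klra6, -2.02 ± 0.23 for Klra5, -1.67 ± 0.24 for Klra3 and -1.60 ± 0.41 for Klra9. Those of the activating receptors were -3.81 ± 0.51 for Klra4 and -2.15 ± 1.01 for Klra8, and that of Klra2 was 1.08 ± 1.08. The median over the 9 members was -1.86 and that over all genes tested was 0.00.

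No member passed the threshold of 0.05 in edgeR's test, with adjusted p from 0.0715 for Klra1 and Klra5 to 0.714 for Klra2, and neither did any other gene (0% of genes called). At an unadjusted p under 0.05 edgeR gave 1663 genes, 7 of them members. DESeq2 called 428 genes lower in Csf3r-/- (3.72% of those tested), and 7 of the 9 members were among them, all but Klra2 and Klra8. Without Csf3r+/+ library 1, where the remaining Csf3r+/+ library is assumed to vary like the others, edgeR called 8 of 10 members lower, beside 4% of genes, and with any of the other 3 libraries left out it called none. Of the 9 members tested 8 had both Csf3r-/- libraries below both Csf3r+/+ libraries, as did 17.4% of all genes tested, and 1 had both above, as did 30.4% of all genes.

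The share of cells with any member followed the same order. At 1500 UMIs, 37% and 62.4% of Csf3r+/+ cells and 16.3% and 18.2% of Csf3r-/- cells held at least 1 member UMI. The Csf3r+/+ libraries differed from each other by more than their counting intervals (35.2 to 38.8% and 61.2 to 63.6%), while the Csf3r-/- libraries were close (15.2 to 17.3% and 17.2 to 19.2%). The means were 49.7% ± 18 and 17.2% ± 1.39 (SD, n = 2 libraries each), and the 2-sided exact permutation test gave p = 0.333, the smallest that 2 against 2 libraries allow. Leaving out Csf3r+/+ library 2 moved the difference from -32.5 to -19.8 percentage points. The intervals cover counting error only.

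In droplet data free RNA can give UMIs in cells that do not express a gene, so the share was also read in barcodes of other cell types. These were taken to lack the members, apart from Klra2 in macrophages. Barcodes without Cd3e but with B cell markers held a member in 7.69% and 22.2% of cases in Csf3r+/+ and 3.08% and 18.2% in Csf3r-/-, from 13, 54, 65 and 11 barcodes. Their median depths before thinning were 2071 to 3024 UMIs, against 2575 to 3494 in member-positive cells. Barcodes without Cd3e but with macrophage markers held a member in 55.2% and 47.8% of cases in Csf3r+/+ and 25.6% and 20.7% in Csf3r-/-, from 29, 161, 39 and 295 barcodes with medians of 2451 to 7702 UMIs. Member-positive macrophage barcodes numbered 16, 77, 10 and 61, of which 0, 3, 3 and 14 held Klra2. By the share with any member, Klra2 included, the macrophage barcodes lay above the kept cells of the same library in 3 of 4 libraries. The share without Klra2 was not computed. In Csf3r+/+ library 1 the macrophage barcodes held 211 CPM of Klra4 and 465 of Klra8, against 9.67 and 6.41 in kept cells. Barcodes with Ncr1 and without Cd3e held 566 and 774 there. The macrophage barcodes held 15.8 and 38.2 CPM of the 2 genes in Csf3r+/+ library 2. In Csf3r-/- they held no Klra4, and 0 and 2.69 CPM of Klra8. Whether the members in these barcodes come from free RNA alone was not tested. The B cell barcodes were highest in Csf3r+/+ library 2. Droplets that hold more than 1 cell were not removed. The part of free RNA and of such droplets in the shares of member-positive cells was not tested.

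Member-positive cells carried genes of NK cells. The summed level of 6 NK markers (Ncr1, Fcer1g, Tyrobp, Klrb1c, Klra4 and Klra8) was 877 to 2140 CPM in member-positive and 90.8 to 446 in member-negative cells, and the last 2 of the 6 are members themselves. Cd3d or Cd3g was found in 97.1 to 99% of member-positive cells and in 96.3 to 99.1% of member-negative cells. Barcodes with Ncr1 and without Cd3e held Cd3d or Cd3g in 27.7%, 88.8%, 80% and 66.7%, so that these genes separate such barcodes from T cells poorly, least in Csf3r+/+ library 2. Ncr1, which marks NK cells and some innate-like T cells, was found in 13.1%, 3.55%, 7.11% and 2.72% of member-positive cells. Without all Ncr1-positive cells the difference in the share of member-positive cells was -30.4 percentage points.

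The share of each member in all member UMIs overlapped between genotypes for most members. Klra7 made up 39.7% and 41.3% of all member UMIs in Csf3r+/+ and 42.8% and 34.9% in Csf3r-/-. Klra1 made up 31.9% and 23.4% in Csf3r+/+ and 28.1% and 27.1% in Csf3r-/-, and Klra9 12.6% and 19.1% in Csf3r+/+ and 15% and 22% in Csf3r-/-. For all 3 the genotypes overlapped. The genotypes did not overlap for Klra5 (2.28% and 2.29% against 1.92% and 1.99%), for Klra4 (0.887% and 0.376% against 0.118% and 0.168%) and for Klra2 (0% and 0.0611% against 0.216% and 0.37%). The exact permutation test gave p = 0.333 for each of these, the smallest it allows, so a lack of overlap is common with so few libraries. The shares of Klra4 and Klra2 rest on 6 to 111 and 0 to 22 UMIs per library.

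A second question was how many members a single cell used. Among member-positive cells at 1500 UMIs the mean number of different members was 1.78 and 1.65 in Csf3r+/+ and 1.58 and 1.5 in Csf3r-/- (means 1.71 ± 0.088 and 1.54 ± 0.0557, SD, exact permutation p = 0.333). Cells with a single member made up 44.9% and 53% in Csf3r+/+ and 56.1% and 62.4% in Csf3r-/-, and no cell in any library held more than 5. The number of members seen rises with the number of member UMIs caught, and the latter averaged 4.04 and 2.95 per positive cell in Csf3r+/+ and 2.88 and 2.68 in Csf3r-/-.

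Among cells with many member UMIs the genotypes were alike. In cells with at least 5 member UMIs (342, 756, 142 and 173 cells) the mean number of members was 2.49 and 2.6 in Csf3r+/+ and 2.49 and 2.51 in Csf3r-/-. Only 8.48%, 8.07%, 6.34% and 7.51% of these cells drew all their member UMIs from 1 gene. Cells with at least 5 member UMIs thus usually held more than 1 member, in both genotypes. They were picked by their member UMIs, a choice that favours cells in which more members are seen. The values therefore do not extend to all member-positive cells.

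UMIs within a cell were still less mixed than in the library as a whole. Among cells with exactly 2 member UMIs, both came from 1 gene in 63.9%, 52.4%, 53.1% and 59.7%. Drawing 2 UMIs at random from all member UMIs of the thinned library would give 1 gene in 28.1%, 26.2%, 28.7% and 25.8%. These values are the sums of the squared shares of the members. They cover cells with any number of member UMIs, and those for cells with exactly 2 were not computed. Against the library-wide draw, the UMIs of cells with exactly 2 came more often from 1 gene. Whether the mix of members in these cells differs from that of the library was not tested. Few of the cells with at least 5 member UMIs showed a single member.

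**Figure D2:**
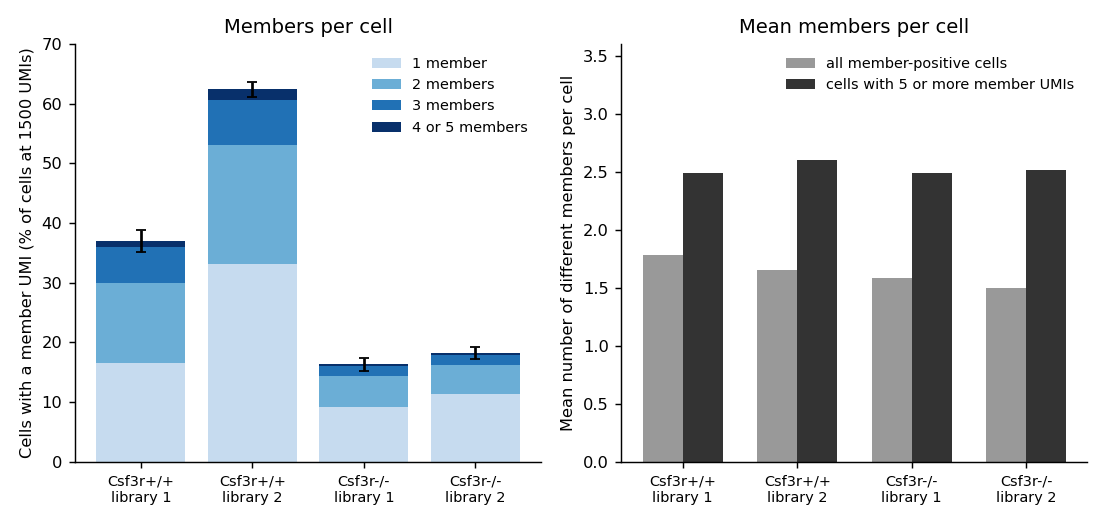
Left, share of cells at 1500 UMIs with a member UMI (y axis, %) in each library, split by the number of different members per cell, with exact 95% binomial intervals of the total. Right, mean number of different members per cell (y axis) in all member-positive cells (grey) and in cells with at least 5 member UMIs (black), which runs from 2.49 to 2.6 in the 4 libraries.

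Whether members exclude each other was read from pairs. To keep cells of other kinds from making every pair look associated, pairs were counted only in cells with a UMI of Klrd1 (CD94, a lectin of the same gene complex that is no member), 910, 3511, 708 and 902 cells at 1500 UMIs. For each of the 15 pairs among Klra1, Klra3, Klra5, Klra6, Klra7 and Klra9 the odds ratio compares the odds of one member in cells with and without the other, and values under 1 mean that the members avoid each other. The cells of a library share its depth and free RNA, so the ratios are a description and carry no test.

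For 6 of the 15 pairs the odds ratio was above 1 in all 4 libraries, and for the other 9 at least 1 library was under 1. Klra6 and Klra7 went together most, with ratios from 3.25 to 5.47. Klra7 was found in 73.2%, 66.5%, 65.6% and 67% of the cells with Klra6 and in 44.5%, 37.9%, 35.1% and 26.9% of those without it. Klra1 and Klra7 had ratios from 2.68 to 3.2, and Klra1 and Klra6 from 1.4 to 3.59.

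A second set joined Klra9. Its ratios ran from 1.95 to 3.05 with Klra5, on 7 to 54 cells with both, and from 1.52 to 2.67 with Klra3. Of the Klra3 words 51.4% were also found in Klra9, so that reads of either could be lost or count for the other. The part of this in the ratio was not tested. Klra3 and Klra6, which share 5.19% of the Klra6 words, had ratios from 1.44 to 1.84.

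Only Klra6 and Klra9 had a ratio under 1 in all 4 libraries, from 0.558 to 0.873. Klra9 was found in 12.2%, 18.2%, 15.1% and 17% of cells with Klra6 and in 20.2%, 25.4%, 17.2% and 24.1% of cells without it. Klra1 with Klra9 (0.579 to 1.02) and Klra7 with Klra9 (0.796 to 1.16) were under 1 in 3 of 4 libraries. None of these pairs was exclusive: 162 cells of Csf3r+/+ library 2 alone held both Klra1 and Klra9.

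The avoidance depended on the cells chosen. In cells with Gzmb (granzyme B) in place of Klrd1 no pair was under 1 in all 4 libraries, the median ratio of Klra6 with Klra9 was 1.08 and that of Klra1 with Klra9 was 1.16, while that of Klra6 with Klra7 was 6.14. With Klra3, Klra9 and Klra10 merged into 1 member, no pair was under 1 in all 4 libraries either, and the median ratio of Klra6 with the merged set was 0.843. The co-occurrence of Klra1, Klra6 and Klra7 was seen under both choices.

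**Figure D3:**
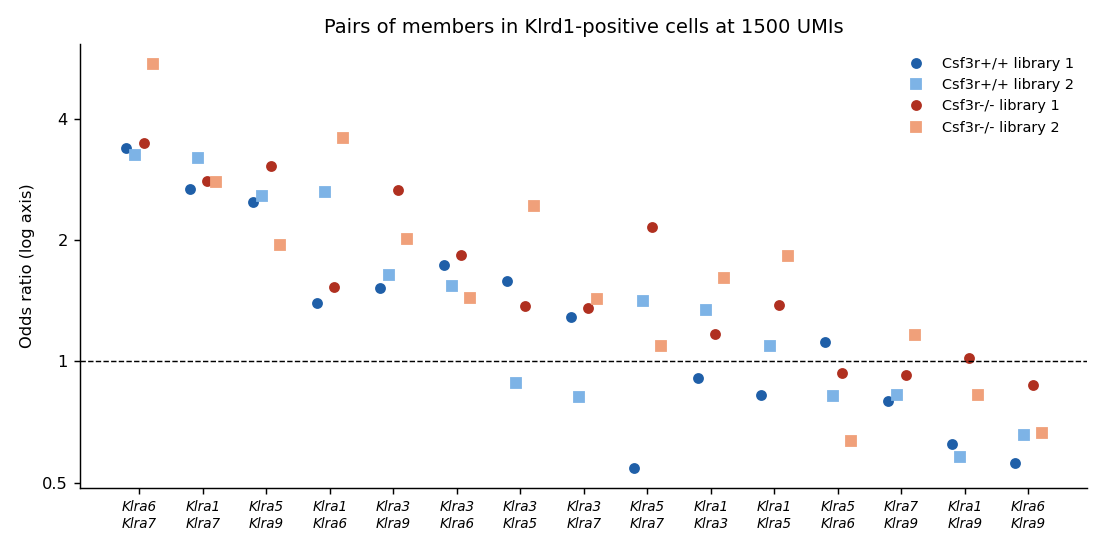
Odds ratio (y axis, log scale) of each of the 15 pairs of members in Klrd1-positive cells at 1500 UMIs, 1 point per library, ordered by the median ratio. The dashed line at 1 marks no association: Klra6 with Klra7 lies at 3.25 to 5.47 and Klra6 with Klra9 at 0.558 to 0.873.

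The promoters of the members were compared because some members went together in Klrd1-positive cells. Promoters of 300 bases (250 before and 50 after the start, RefSeq, GRCm38.p6) were found for all 10 members. The letters CTTTGA, like those that the factors TCF-1 and LEF-1 bind, were searched on both strands and stood in the promoters of Klra6 and Klra7 and of no other member, and in 16% of all 32851 promoters. TGTGGT, like those of Runx factors, stood in Klra1 alone and in 16.8% of all promoters. AGGTGTGA (T-box-like), ACATCCT (ETS-like) and TGACTCA (AP-1-like) stood in no member promoter and in 1.28%, 3.93% and 5.2% of all, and no member promoter held more than 1 of these motifs. The stretch that holds CTTTGA is shown for the 7 members in which a search for the letters tttcctct found it, in capitals where the motif matched. In it Klra6 and Klra7 differ from the other members shown. CTTTGA in 2 of 10 members is close to its share of all promoters. The letters did not follow the pairs throughout. Klra1, which went with Klra6 and Klra7 in all 4 libraries, held neither CTTTGA nor this stretch. Klra3, which lacks CTTTGA, went with Klra6 at ratios from 1.44 to 1.84. The Klra5 promoter holds a like stretch without CTTTGA that begins with tttcctcc, which the search missed and which is not shown.
Klra6, chr6:130027029-130027073, minus strand: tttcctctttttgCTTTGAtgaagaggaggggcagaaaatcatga
Klra7, chr6:130233367-130233411, minus strand: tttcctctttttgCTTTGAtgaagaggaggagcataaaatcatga
Klra9, chr6:130193106-130193150, minus strand: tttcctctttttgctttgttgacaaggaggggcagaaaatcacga
Klra3, chr6:130337601-130337645, minus strand: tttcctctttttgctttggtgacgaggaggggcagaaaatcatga
Klra4, chr6:130067306-130067350, minus strand: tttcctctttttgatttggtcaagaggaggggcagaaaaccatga
Klra8, chr6:130129934-130129978, minus strand: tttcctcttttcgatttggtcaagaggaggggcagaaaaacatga
Klra2, chr6:131247389-131247433, minus strand: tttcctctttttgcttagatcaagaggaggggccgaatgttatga
These matches describe letters only and say nothing of which factor binds.

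Cells with Klra9 and cells with Klra1, Klra6 or Klra7 also differed in other genes. This contrast was chosen after the values were seen and is given without a test. It sets 132, 784, 92 and 236 cells with Klra9 and none of the other 3 against 721, 2354, 536 and 626 cells with at least 1 of the 3 and no Klra9. Gzmb, a protease of cytotoxic granules, was found in 90.9%, 73.5%, 83.7% and 60.2% of the former and in 54.1%, 26.2%, 29.3% and 24% of the latter, so that the cells with Klra9 were higher in 4 of 4 libraries. Ifng, the gene of interferon-γ, was found in 34.1%, 33.2%, 32.6% and 19.1% against 21.2%, 17.7%, 12.5% and 9.11%.

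Several other genes went the other way, while Klrk1, the NK receptor NKG2D, was found in 66.5 to 77.7% of the cells with Klra9 against 59.4 to 72.9% of the others and was higher in 4 of 4 libraries. Fcer1g, an adaptor with an activation motif, was found in 25%, 25%, 31.5% and 17.8% of the cells with Klra9 and in 72%, 55.9%, 59.1% and 44.1% of the others. Tyrobp, the adaptor of activating Ly49 receptors, was found in 6.06%, 7.02%, 12% and 5.08% against 28.8%, 15.1%, 25.7% and 17.6%. Ncr1, which marks NK cells and some innate-like T cells, was found in 1.52%, 0.765%, 2.17% and 0.847% against 15.4%, 4.42%, 7.65% and 3.99%. The part of Ncr1-positive cells in the other differences was not tested. Tcf7, which encodes TCF-1, was found in 4.55%, 10.2%, 8.7% and 5.08% against 17.3%, 23.2%, 17.4% and 16%, and Eomes in at most 0.758% against 2.72 to 6.03%. Tbx21, which encodes T-bet, was found in 7.2 to 16.7% against 5.11 to 8.74%. All cells with Klra9, with or without the other 3, had lower depth before thinning than all cells with Klra7. Their medians were 2363 to 2899 UMIs against 2749 to 3598. The depth of the 2 groups contrasted here was not computed, and its part in the shares after thinning was not tested.

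**Figure D4:**
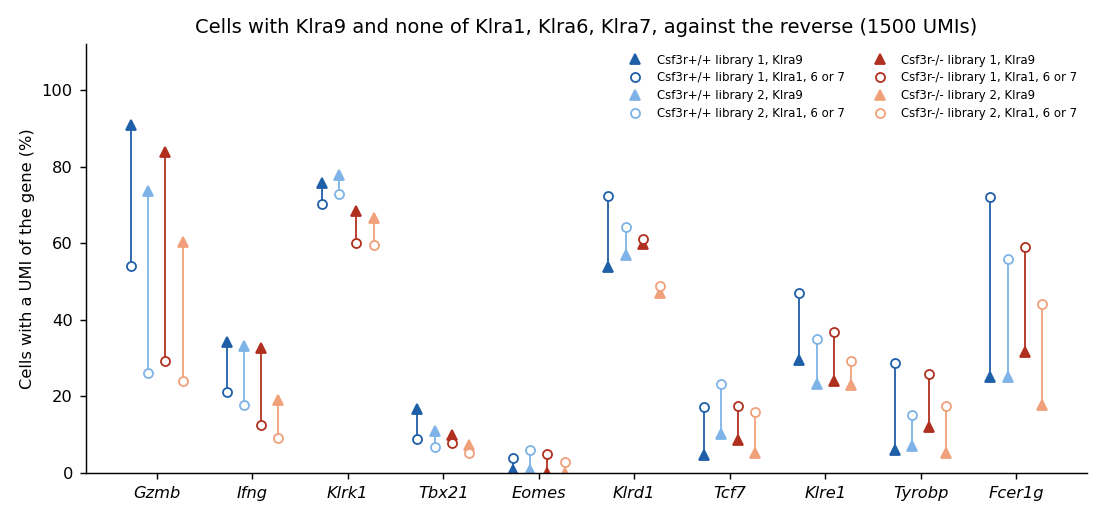
Share of cells with a UMI of each of 10 genes (y axis, %) at 1500 UMIs, in cells with Klra9 and none of Klra1, Klra6 and Klra7 (triangles) and in cells with at least 1 of those 3 and no Klra9 (open circles), joined within each of the 4 libraries. For Gzmb the triangles lie at 60.2 to 90.9% and the circles at 24 to 54.1%, and for Fcer1g at 17.8 to 31.5% and 44.1 to 72%.

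The genes most like each member were named by the phi coefficient of detection over cells at 1500 UMIs, averaged over the 4 libraries. For Klra7 they were Fcer1g (0.376), Klra1 (0.356) and Ccl5 (0.355), and for Klra1 they were Fcer1g (0.365), Klra7 (0.356) and Xcl1 (0.316). For Klra6 they were Klra7 (0.283), Fcer1g (0.26) and Xcl1 (0.238), for Klra9 Gzmb (0.326), Ly6c2 (0.297) and Klrb1c (0.221), and for Klra5 Klra9 (0.114), Ly6c2 (0.108) and Gzmb (0.103). Klra3 was led by Ly6c2 at 0.139, Xcl1 at 0.138 and Ccl5 at 0.126. For any member together the list was Ly6c2 (0.496), Ccl5 (0.48), Xcl1 (0.461), Klrd1 (0.448), Fcer1g (0.44), Nkg7 (0.419), Klre1 (0.383), Ms4a4b (0.38), Gimap4 (0.359) and Ctsw (0.355). The lowest coefficient in any library ran from 0.102 for Ctsw to 0.256 for Ccl5 over these 10 genes. The coefficients are a description over 4 libraries whose cells share depth and free RNA. The lists for Klra4 and Klra10 rested on 79 and 36 cells and are not given.

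Members were then compared between cells with and without Klrd1, at 1500 UMIs. Klrd1 was found in 32.7% and 55.6% of Csf3r+/+ cells and in 15.1% and 15.4% of Csf3r-/- cells. A member was found in 78.4%, 70.1%, 65% and 59.8% of Klrd1-positive cells and in 16.9%, 52.9%, 7.56% and 10.6% of Klrd1-negative cells. Csf3r+/+ library 2 stood apart in the second share, with more than 3 times the value of the next.

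All 6 frequent members were higher in Klrd1-positive cells by edgeR with library as a block, beside 3.69% of 9421 genes called higher, and 7 of the 10 members could be tested. The log2 fold changes were 2.74 ± 0.43 (SE) for Klra1, 2.64 ± 0.40 for Klra7, 2.54 ± 0.44 for Klra6, 2.17 ± 0.46 for Klra9, 2.01 ± 0.41 for Klra3 and 1.94 ± 0.44 for Klra5, with adjusted p from 0.00926 for Klra7 to 0.0298 for Klra5. Klra8 had 1.77 ± 0.69 (adjusted p = 0.168 in edgeR). Within libraries the log2 ratio of Klra7 was 2.65 and 0.791 in Csf3r+/+ and 3.55 and 3.11 in Csf3r-/-, and that of Klra9 was 1.82 and 0.256 in Csf3r+/+ and 3.42 and 2.93 in Csf3r-/-. Every frequent member had a positive ratio in 4 of 4 libraries, and the smallest was that of Csf3r+/+ library 2 for each.

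The calls depended on the libraries included. With Csf3r-/- library 1 or library 2 left out none of the members passed in edgeR (adjusted p from 0.0733 to 0.151 for the 6). In these fits 8 and 7 of the 8 members tested had an unadjusted p under 0.05, as did 1469 of 9461 and 1487 of 9412 genes. With Csf3r+/+ library 1 left out 2 members passed, Klra1 and Klra7, beside 0.203% of genes called higher. A test of the interaction of Klrd1 with genotype gave larger ratios in Csf3r-/- for all 7 members, by 1.70 for Klra7 to 3.88 for Klra8 on the log2 scale. None passed after adjustment over all genes in edgeR (adjusted p from 0.207 to 0.482, unadjusted p from 0.000529 to 0.012). An unadjusted p under 0.05 was also found for 724 of 9421 genes, these 7 among them.

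**Figure D5:**
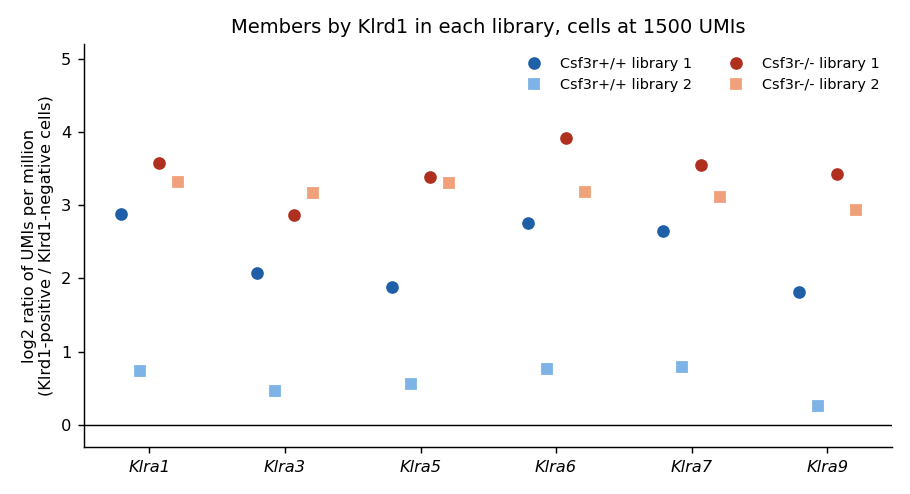
Log2 ratio of CPM in Klrd1-positive over Klrd1-negative cells at 1500 UMIs (y axis) for the 6 frequent members, 1 point per library. All points are above 0, and those of Csf3r+/+ library 2 (light squares, 0.256 to 0.791) lie below those of the other 3 libraries.

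Among Klrd1-positive cells alone the genotypes were closer. Here cells were not thinned, and a cell counted as Klrd1-positive with at least 1 Klrd1 UMI at its full depth. This gave 1179 and 4848 cells in Csf3r+/+ and 1027 and 1269 in Csf3r-/-. Such a gate depends on depth, which differed between the genotypes, and its part in the values was not tested. Summed over these cells, Klra7 held 839 and 576 CPM in Csf3r+/+ and 511 and 416 in Csf3r-/-. Klra1 held 681 and 322 in Csf3r+/+ and 328 and 321 in Csf3r-/-, and Klra9 held 233 and 238 in Csf3r+/+ and 160.2 and 244 in Csf3r-/-. For Klra1 and Klra9 the genotypes overlapped.

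Of the 8 members tested there, 4 (Klra4, Klra5, Klra6 and Klra7) had both Csf3r-/- libraries below both Csf3r+/+ libraries, as did 13.9% of the 9841 genes tested, and none had both above, as did 22.3% of genes. The log2 fold changes of the 6 frequent members ran from -0.80 ± 0.26 (SE) for Klra5 to -0.25 ± 0.28 for Klra9. In edgeR's test none of the 8 members passed, with 1.68% of genes called. Of the 8, 4 had an unadjusted p under 0.05, as did 918 of the 9841 genes. Klra4 had -2.89 ± 0.75 (adjusted p = 0.18 in edgeR) and passed in DESeq2 at an adjusted p of 0.0126, beside 2.08% of genes called lower, on 1.07 and 1.96 CPM in Csf3r-/- against 18.4 and 5.22 in Csf3r+/+. Without Csf3r+/+ library 2 Klra4 passed in edgeR as well, at -3.55 with an adjusted p of 0.0407, beside 0.835% of genes called lower. Without each of the other 3 libraries in turn it did not pass, with adjusted p from 0.238 to 0.629 in edgeR.

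The last comparison set cells with any member against cells with none, within each library at 1500 UMIs, and read the other genes of the pathway from lists. Before thinning, cells with a member had medians of 3494, 3266, 2934 and 2575 UMIs, against 2884, 2771, 2256 and 2030 in cells with none. The part of this difference in depth in the values after thinning was not tested. The members made the groups and were not tested, and edgeR with library as a block called 6.09% of 9198 genes higher and 5.76% lower in member-positive cells. The lectins of the same gene complex were the list that differed most upwards: 9 of 11 tested were higher, with a median log2 fold change of 2.1 against 0.01 over all genes. Klre1, an NK receptor chain, rose by 3.18 ± 0.38 (SE, adjusted p = 0.00358 in edgeR), Klrd1 by 2.70 ± 0.42, Klrc2 by 2.28 ± 0.43 and Klrc1, the inhibitory partner of CD94, by 2.02 ± 0.40. Klrb1b (0.25 ± 0.30) and Klrg1 (-1.03 ± 0.49) did not pass, and Klrc3 and Klri1 were too low to test.

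Of the signalling genes 3 of 10 tested were higher. Fcer1g rose by 3.03 ± 0.37 and Tyrobp by 2.96 ± 0.43. Ptpn6, whose product SHP-1 binds the inhibitory motif, rose by 0.75 ± 0.09 (adjusted p = 0.00356 in edgeR), with 188, 103, 148 and 96.3 CPM in member-positive and 109.7, 67.7, 91.6 and 73.1 in member-negative cells. The other 7, among them Hcst (0.24 ± 0.08), did not pass. Of the ligand genes H2-K1 rose by 0.30 ± 0.08 (adjusted p = 0.039 in edgeR), while H2-D1 (0.09 ± 0.07) and B2m (0.14 ± 0.08) did not pass, and H2-L has no row. H2-K1 did not pass in DESeq2 (adjusted p = 0.086), in cells with 2 or more member UMIs (adjusted p = 0.0582 in edgeR) or with any library but Csf3r+/+ library 2 left out (adjusted p from 0.163 to 0.222 in edgeR).

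Among 10 transcription factors 4 were higher: Tbx21 by 1.82 ± 0.38, Lef1 by 1.49 ± 0.32, Eomes by 1.29 ± 0.30 and Tcf7 by 0.45 ± 0.11, of which Tcf7 did not pass in DESeq2 (adjusted p = 0.089). Runx3 (0.20 ± 0.11), Nfil3 (-0.01 ± 0.18), Id2 (-0.09 ± 0.10), Zeb2 (-0.40 ± 0.26), Prdm1 (-0.53 ± 0.24) and Ets1 (0.04 ± 0.08) did not pass. Of 10 type 1 effectors 7 were higher, with a median of 1.63, among them the chemokine genes Xcl1 (2.94 ± 0.46) and Ccl5 (2.14 ± 0.45), Gzmb (1.89 ± 0.37) and Ifng (1.75 ± 0.43). Ifng was higher in only 3 of 4 libraries, since Csf3r+/+ library 2 had 315 CPM in member-positive and 367 in member-negative cells. Gzma, Gzmk and Prf1 did not pass.

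All 9 type 3 genes that could be tested fell, with a median of -2.14. Il17a, the gene of interleukin-17A, fell by 2.09 on the log2 scale, Il23r by 2.67 and Zbtb16, which encodes PLZF, by 1.67. Among all genes changed the same way in 4 of 4 libraries, the 8 with the largest rise were Ncr1 (4.25 ± 0.24), Car2 (3.49 ± 0.31), Klrb1a (3.38 ± 0.32), Klre1, Klrb1c (3.10 ± 0.50), Fcer1g, Tyrobp and Xcl1. The 8 with the largest fall were Cpe (-2.91 ± 0.36), Ffar2 (-2.87 ± 0.45), Irak3 (-2.85 ± 0.43), Pxdc1 (-2.81 ± 0.31), Gm9961 (-2.81 ± 0.26), Cd163l1 (-2.71 ± 0.50), Il23r and Cdh10 (-2.66 ± 0.38).

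The calls in the lists shrank when a library was left out. Without Csf3r-/- library 1 edgeR called 2 of 11 lectins, no factor, no type 1 effector and 3 of 9 type 3 genes, with medians of 1.79, 0.11, 1.25 and -2.19. Without Csf3r-/- library 2 it called 4 lectins, no factor, no type 1 effector and 9 type 3 genes, and without Csf3r+/+ library 1 it called 5, 0, 3 and 9. Without Csf3r+/+ library 2 it called 9, 5, 9 and 9, 1 of the 5 factors being lower. Tyrobp, Fcer1g and Ptpn6 passed in each of these 4 fits. Macrophage markers, 8 of 8 in the tables, summed to 23.3 to 470.3 CPM in member-positive and 21.7 to 702 CPM in member-negative cells, and were higher in the former in 3 of 4 libraries. Cells with 2 or more UMIs of markers of other cell types, macrophages among them, were left out in an alternative fit. There edgeR again called 3 of 10 signalling genes higher, with a median of 0.37. The part of macrophage RNA in the rise of Tyrobp and Fcer1g, which macrophages also express, was not tested beyond this.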

How the data were processed

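The single-cell count tables were deposited by the authors as UMI counts per gene and barcode, made with Cell Ranger against mm10 from 10x 3′ libraries, per the labels and the study's methods. Per the study's methods, the 2 libraries of a genotype were pooled into 1 table with the aggregate option of Cell Ranger. That option can thin reads to even out depth between the pooled libraries, and its setting is not given in the sources used here. A barcode's library was read from the number after it, which no label ties to a sample. The methods call the libraries of a genotype biological replicates, without naming the animals behind each.

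No doublet caller was run. Counts were summed per library and tested with edgeR 4.0.16 (TMM scaling, filterByExpr, quasi-likelihood test, adjusted p under 0.05), with DESeq2 1.42.0 as an alternative, in R 4.3.3. Genes that set the groups were left out of those fits. On simulated counts the edgeR step recovered 198 of 200 changed genes for the comparison of genotypes (11529 genes), with 11 other genes called. For that of Klrd1-positive with Klrd1-negative cells (9449 genes) it recovered 200 of 200, with 5 other genes called. The simulation gave large changes to well-detected genes and the same fixed spread to every gene. That spread was not estimated from these libraries, so the recovery does not measure the power of the tests above. Shares carry exact binomial and counts exact Poisson intervals at 95%, which cover counting error only. Named genes were the lists given, the 8 that rose most and the 8 that fell most among genes called and changed alike in 4 of 4 libraries, and the 10 (3 per member) with the highest phi. The members and lists were chosen with earlier results of these data known.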

Additional observations from a re-analysis of the deposited data

Results flagged for a closer look

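Gzma (granzyme A) differed between genotypes in its relation to the Ly49 members, by a test of the interaction itself. The log2 ratio of member-positive to member-negative cells was larger in Csf3r-/- than in Csf3r+/+ by 3.63 ± 0.30 (SE, adjusted p = 0.0217 in edgeR), the only gene of those tested that passed. Member-positive cells held 25.9 and 36 CPM of Gzma in Csf3r+/+ and 61.4 and 61.9 in Csf3r-/-, and member-negative cells held 27.4 and 43 in Csf3r+/+ and 4.09 and 7.52 in Csf3r-/-.

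Barcodes without Cd3e, which stood outside the main comparisons, held most UMIs of both activating receptors. Klra4 had 744 of its 976 UMIs there (76.2%) and Klra8 1107 of 1388 (79.8%), against 5181 of 18536 for Klra1 (28%). Klra2 also had most of its UMIs there (92 of 151, 60.9%). By library the shares of Klra4 were 84.2% and 53% in Csf3r+/+ and 75% and 80.8% in Csf3r-/-. Those of Klra8 were 90.9% and 62.5% in Csf3r+/+ and 90.3% and 55.3% in Csf3r-/-. Csf3r+/+ library 1 alone gave 559 of the 744 Klra4 UMIs and 762 of the 1107 Klra8 UMIs. Barcodes without Cd3e but with Ncr1 held a member in 81.5 to 96% of cases.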

How the results depend on the processing

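For the genotypes in all kept cells, genes past the threshold numbered 622 with DESeq2, 303 with no filter on low counts and 300 with the replicate number as a block, and members 7, 6 and 7; leaving out 1 library gave 0 to 847 genes and 0 to 8 members. In Klrd1-positive cells the same alternatives gave 341, 663 and 710 genes and 1 member each (Klra4), and leaving out 1 library gave 0 to 342 genes and 0 to 1 members. There Klra8 ran from -5.06 to 0.34 and Klra9 from -0.66 to 0.06 with 1 library left out, above 0 without Csf3r-/- library 1. Whether same-numbered libraries share more than a number is not given in the sources used here. With 2 pairs, their deviations correlated at 0.414 over 4824 genes. Klrd1-positive against Klrd1-negative cells gave 1551 genes with no filter, 2078 unthinned, 482 with Klre1 as the gate and 0 genes and 0 members with no library block, and 53 to 1643 genes and 0 to 6 members with 1 library left out. Member-positive against member-negative cells gave 1714 with no filter, 1906 unthinned, 0 with no library block and 74 to 1751 with 1 library left out. Uncalled genes near 0 changed sign: Nfil3 (0.00 with DESeq2, 0.01 with 2 or more member UMIs), Crk (-0.03 with no filter, -0.02 without cells with other markers), Ets1 (-0.01) and Gzmk (-0.05) with 2 or more member UMIs, and, with 1 library left out, Klrb1b (-0.06 to 0.44), Crk (-0.11 to 0.14), Nfil3 (-0.19 to 0.18) and Gzmk (-0.10 to 0.74). Unthinned, the difference in members per positive cell was -0.317. Pairs under 1 in all libraries numbered 0 with copies merged and 0 in Gzmb-positive cells, where 10 were over 1, and 1 to 2 with 1 library left out. The causes were not tested. The alternatives without Ncr1-positive cells were chosen after seeing the data.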
